A study of Drosophila melanogaster with 4 samples.

Results

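The genes described here are 9 Drosophila melanogaster genes for insulator proteins and for factors of housekeeping promoters. They were chosen by symbol from a gene annotation, with earlier results of these data known. They are 9 of the 13968 protein-coding genes on the main chromosome arms. They are Chro, pzg, BEAF-32, Cp190, CTCF, su(Hw), mod(mdg4), Dref and M1BP. The question asked of each was where Gug-eGFP, a tagged chromatin protein, was found on the gene itself. All thresholded peaks in the span of each gene and 5 kb either side of it were taken, which gave 38 peaks that joined into 13 regions, of 4466 joined regions in the whole series.

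The series is chromatin immunoprecipitation with sequencing of whole transgenic embryos aged 0 to 24 h that carry a fusion of Gug, the fly Atrophin co-repressor, to eGFP. The fusion was pulled down with anti-GFP antibody from sonicated chromatin of 200 to 800 bp, in 4 biological replicates that form 1 group. Whole embryos mix all cell types and stages of that window. The samples used here include no control, the labels' possible control experiment was not analysed here, and no comparison between conditions was possible.

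Insulator proteins bind DNA or join DNA-bound partners and help to separate chromatin domains. In flies, CTCF, Su(Hw) and BEAF-32 bind DNA directly, while CP190 and Mod(mdg4), which both have a BTB domain, are recruited as cofactors. Many of these proteins also sit at promoters of housekeeping genes, where Dref reads the DNA replication-related element, M1BP reads the motif 1 element, and Chro (Chromator) and pzg (Putzig, or Z4) work as interband chromatin proteins. All of the values below describe Gug-eGFP at the genes that code for these proteins, not the binding of the proteins themselves.

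Gug-eGFP was found within 1 kb of a start site of Chro, BEAF-32, Cp190 and M1BP, each in all 4 replicate lists, though the M1BP region lay nearer to the divergent gene CG8202. A gene is called bound here where a region present in at least 2 lists lay within 1 kb of one of its transcription start sites (TSSs). By this rule 4 of the 9 genes, or 44.4%, were bound, and the share over all genes was 15.9% (2216 of 13968). Requiring all 4 lists left the same 4 genes, against 7.84% of all genes (1095). The wider window of the gene span and 5 kb either side held such a region at 5 genes, with mod(mdg4) added, against 35.9% of all genes. The 9 genes were chosen with earlier results of these data known, so they are not an unselected set. With only 9 genes the shares are descriptions, and no test was made. The lists for replicates 1 to 4 held 1948, 3786, 2117 and 2450 peaks. Chro, BEAF-32, Cp190 and M1BP were bound in each single list, CTCF was added in the list of replicate 1 and Dref in that of replicate 2. The share of all genes bound in the single lists was 10.3%, 22.5%, 13.8% and 13.0% for replicates 1 to 4. Of the 13 regions, 8 were in at least 2 lists, 6 of these were in all 4, and 5 were in 1 list.

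The sequences that follow show DNA at or beside start sites that the results turn on. Not every summit lies inside a printed line, and no line is printed for BEAF-32. They were read from the RefSeq Release 6 genome (dm6 coordinates), plus strand, 5′ to 3′. Capitals mark matches, on either strand, to the 10 short motifs named further on. Where a summit lies in a transcribed leader only a short site is shown.
Chro, chr3L:22878880-22878909, a 5′ UTR site on the upstream side of the summits: tgtattgcctgtCGATAgctttaaactaac
Cp190, chr3R:15275222-15275521, its TSS and the gap to the divergent gene CG4338: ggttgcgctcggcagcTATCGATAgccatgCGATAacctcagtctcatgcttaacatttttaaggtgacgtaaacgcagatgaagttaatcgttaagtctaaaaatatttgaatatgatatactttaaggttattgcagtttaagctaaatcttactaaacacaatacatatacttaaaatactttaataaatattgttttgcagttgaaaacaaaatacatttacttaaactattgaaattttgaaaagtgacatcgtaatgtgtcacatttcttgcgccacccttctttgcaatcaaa
M1BP, chr3R:8731889-8732090, the part of the region before the start of CG8202: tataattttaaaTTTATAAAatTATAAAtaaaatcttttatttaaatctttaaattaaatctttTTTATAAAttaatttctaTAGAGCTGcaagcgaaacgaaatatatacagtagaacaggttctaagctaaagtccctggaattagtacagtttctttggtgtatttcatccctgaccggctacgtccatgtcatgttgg
mod(mdg4), chr3R:21365489-21365608, between oppositely directed internal start sites: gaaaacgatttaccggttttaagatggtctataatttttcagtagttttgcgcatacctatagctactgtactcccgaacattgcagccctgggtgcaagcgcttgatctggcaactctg
pzg, chr3L:21285963-21286098, the gap to CG12974, with no thresholded peak: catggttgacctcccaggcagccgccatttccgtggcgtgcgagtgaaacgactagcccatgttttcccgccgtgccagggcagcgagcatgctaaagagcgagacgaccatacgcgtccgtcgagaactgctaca
Dref, chr2L:9967230-9967312, the gap to RpL13, next to a peak of 1 list: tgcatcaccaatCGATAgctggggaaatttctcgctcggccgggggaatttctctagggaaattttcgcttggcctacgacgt
The Cp190 line carries the complete Dref element TATCGATA across the Cp190 start site, and a second CGATA just upstream. The Dref line carries CGATA but not TATCGATA. All but its last bases lie inside the peak of replicate 2 (chr2L:9967009-9967308). Most of that peak, with its summit at chr2L:9967159, lies outside the line, within Dref. The pzg and mod(mdg4) lines carry no match to any of the 10 motifs.

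Chro, which codes for the chromodomain protein Chromator, carried the strongest signal among the 9 genes. The gene lies at chr3L:22873702-22878984 on the minus strand, and its region spanned chr3L:22878729-22879064. Each peak has a signal score that is the authors' own value, and a peak is placed here by its percentile within its own list, where 100 is the strongest. The Chro peak was at the 99.5, 99.7, 99.4 and 99.7 percentile in replicates 1 to 4, with a mean of 99.6 ± 0.127 (SD, n = 4). It ranked 10 of 1948, 12 of 3786, 13 of 2117 and 9 of 2450 peaks. All 4 replicates thus placed it near the top, and 99.1% of the 1171 regions in all 4 lists had a lower mean percentile. The summits fell within 22 bp of each other, in the 5′ UTR of the longest transcript. Their median lay 121 bp downstream of the outermost Chro TSS and 95 bp upstream of the next one. The divergent gene Ssl1, which codes for a TFIIH subunit, starts 105 bp from the outermost Chro TSS and 226 bp from the median summit. Chro and Ssl1 therefore share one region and cannot be told apart by the rule. A second peak in the window, at CG11109, was in the list of replicate 2 only, at the 6.15 percentile.

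mod(mdg4), a BTB-domain gene whose many isoforms arise by trans-splicing, had the next strongest region, but inside the gene and not at its promoter. The gene lies at chr3R:21350846-21377401 on the minus strand with 1 annotated TSS. The region at chr3R:21365211-21365694 lay 11978 bp inside the gene and was in all 4 lists, at the 92.2, 97.4, 94.5 and 92.0 percentile in replicates 1 to 4 (mean 94.0 ± 2.55 SD, n = 4). All 4 values are high, and replicate 2 is the highest. The annotation places start sites of pre-mod(mdg4) transcripts there, the separate precursors that supply alternative last exons. Of 23 pre-mod(mdg4) genes annotated, 10 were bound, all of them at this one place. The summits formed a pair. In replicates 1, 2 and 4 a summit lay 52, 49 and 54 bp upstream of the pre-mod(mdg4)-C start. In replicates 2, 3 and 4 a summit lay 53, 14 and 55 bp upstream of the pre-mod(mdg4)-E start. The same summits lay 68, 107 and 66 bp from the plus-strand start shared by pre-mod(mdg4)-V and others. In the lists with both summits, the one at pre-mod(mdg4)-C was the stronger, at 97.4 against 90.8 in replicate 2 and at 92.0 against 64.6 in replicate 4. The region takes its strongest peak in each list. Its mean and SD thus mix the pre-mod(mdg4)-C summit of replicates 1, 2 and 4 with the pre-mod(mdg4)-E summit of replicate 3.

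A second mod(mdg4) region, at chr3R:21378620-21378976, lay 1413 bp upstream of the mod(mdg4) TSS and 163 bp upstream of tin, the divergent gene for the heart and mesoderm homeobox protein Tinman. Its percentiles were 70.0, 79.7, 66.9 and 72.9 in replicates 1 to 4 (mean 72.4 ± 5.48 SD, n = 4), ranks of 586 of 1948, 769 of 3786, 702 of 2117 and 664 of 2450 peaks. It lay in the upper part of every list. It is nearer to tin than to mod(mdg4), and with the 1 kb rule it counts for tin. A peak 41 bp downstream of the start of aus, past the other end of the gene, was in the list of replicate 2 only, at the 25.6 percentile.

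Cp190, which codes for the cofactor shared by most fly insulator complexes, was bound at a divergent promoter. The gene lies at chr3R:15270432-15275241 on the minus strand, and CG4338 starts 281 bp away in the other direction. The region at chr3R:15275208-15275646 was at the 75.4, 86.3, 82.3 and 87.0 percentile in replicates 1 to 4 (mean 82.8 ± 5.32 SD, n = 4). Replicate 1 is the lowest of the 4 lists. A summit lay 40, 43, 59 and 53 bp upstream of the Cp190 TSS in replicates 1 to 4, inside the printed gap. Replicates 2, 3 and 4 each held a further summit 24, 23 and 27 bp upstream of CG4338, at the 77.8, 70.7 and 55.3 percentile. The pair of summits, one before each start, was thus resolved in 3 of 4 lists, with the Cp190 side stronger in each of the 3. The summit groups were 209 bp apart. Among the 6 regions of these genes in all 4 lists, 2 held more than one peak of a single list, Cp190 and the internal mod(mdg4) region, as did 108 of the 1171 regions in 4 lists (9.22%).

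BEAF-32, the boundary element-associated factor, was the only one of the 9 genes with 3 regions within 1 kb of its TSSs. Of all genes, 22 (0.158%) had 3 or more, and no gene with a single TSS did. BEAF-32 lies at chr2R:14770469-14772630 on the plus strand with 3 annotated TSSs. Its leading region at chr2R:14770269-14770577 was at the 66.3, 87.2, 70.0 and 71.3 percentile in replicates 1 to 4 (mean 73.7 ± 9.24 SD, n = 4). Replicate 2 stands above the other replicates, which lie close together. The 4 summits lay 36 to 48 bp upstream of the outermost TSS and within 12 bp of each other. The other two regions were found in replicates 2 and 3. One lay 12 bp upstream of an internal TSS, at the 82.0 and 40.9 percentile in replicates 2 and 3. The other lay 393 bp downstream of the innermost TSS, in an intron, at the 53.8 and 42.1 percentile in replicates 2 and 3.

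M1BP, the motif 1 binding protein of housekeeping promoters, had the weakest of the leading regions. The gene lies at chr3R:8729790-8731698 on the minus strand, and CG8202 starts 393 bp away in the other direction. The region at chr3R:8731889-8732203 was at the 47.9, 80.9, 46.4 and 41.7 percentile in replicates 1 to 4 (mean 54.2 ± 17.9 SD, n = 4). Replicate 2 is far above the other replicates. The summits lay 343 to 377 bp upstream of M1BP but only 16 to 50 bp upstream of CG8202. The median summit was 31 bp from the CG8202 start and 362 bp from the M1BP start, so the region sits at the far end of the shared promoter. When each region was given to its nearest TSS alone, M1BP was no longer bound and 3 of the 9 genes were. The share of all genes under that rule is not given here, so this count has no background beside it.

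**Figure D1:**
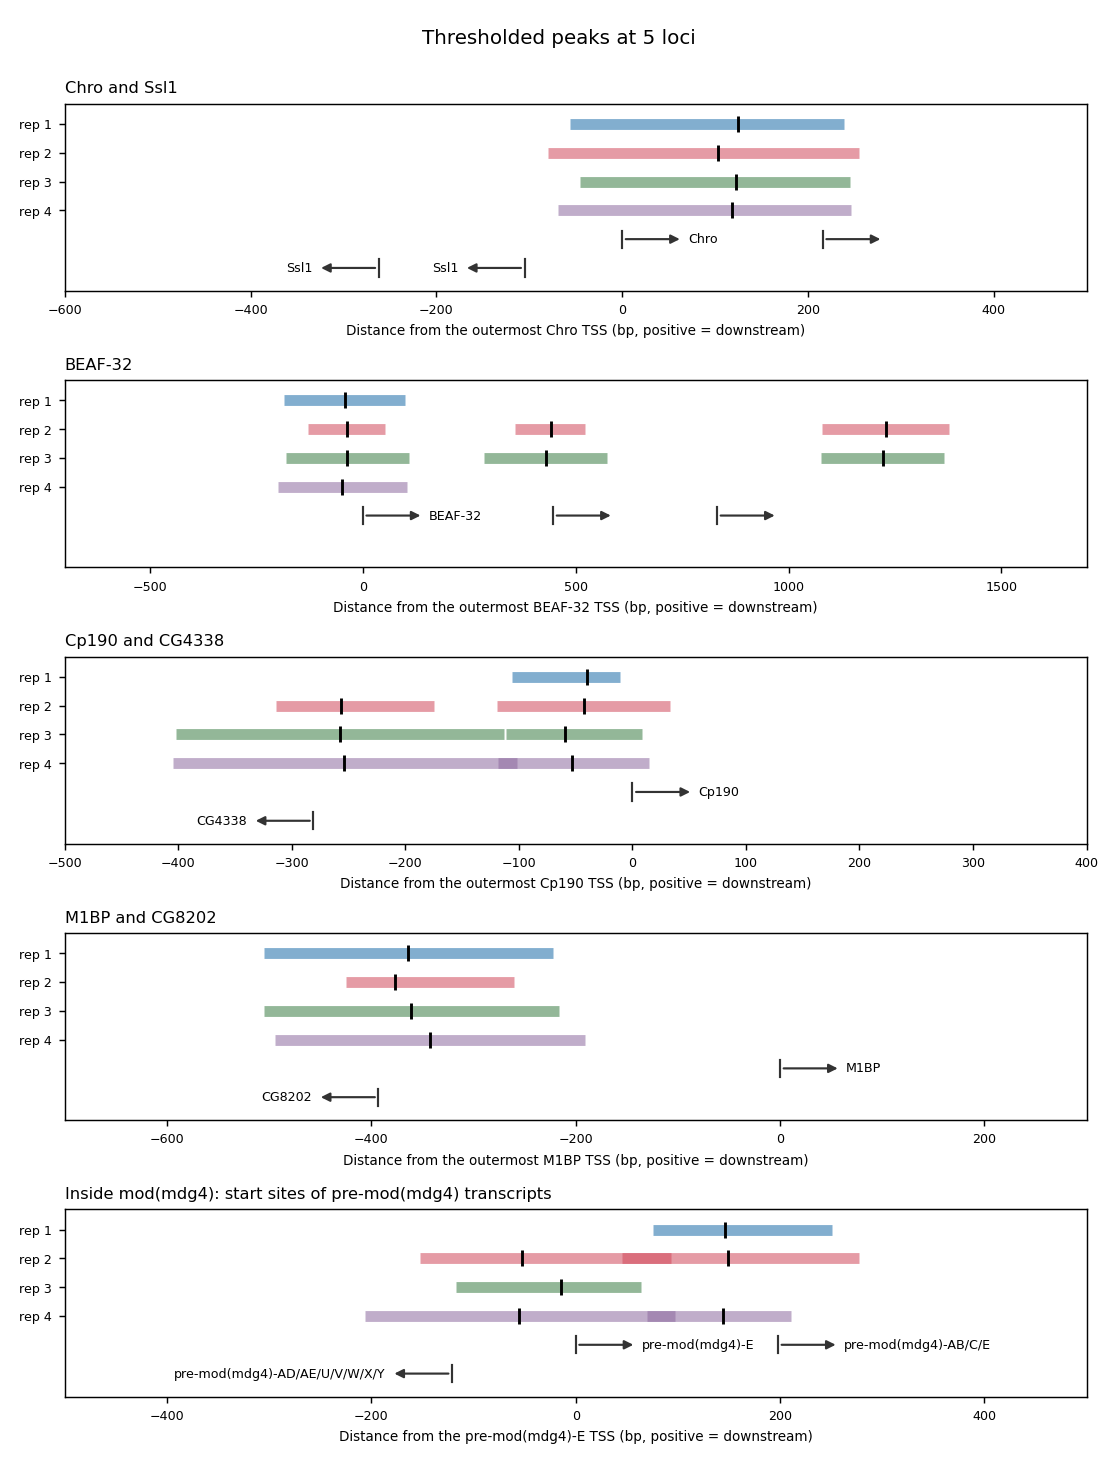
Thresholded peaks of replicates 1 to 4 (coloured bars, black ticks are summits) at Chro, BEAF-32, Cp190, M1BP and the internal start sites of mod(mdg4), against distance in bp from the TSS named under each map. Arrows are start sites with their direction. Summits of M1BP's region lie by CG8202, and Cp190 and the internal mod(mdg4) place hold a pair of summits.

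The leading region of a gene is the one within 1 kb of its own TSSs in the most lists, then with the highest mean percentile. Where none lies within 1 kb, it is chosen in the same way over the gene span and 5 kb either side. This holds for mod(mdg4), whose region lay 11978 bp from its TSS, nearest to pre-mod(mdg4)-E. By signal score, the order of the leading regions was Chro, mod(mdg4), Cp190, BEAF-32 and M1BP. Chro was above mod(mdg4) in 4 of 4 lists, and mod(mdg4) was above Cp190 in 4 of 4 lists, with no overlap of their ranges in either step. Cp190 was above BEAF-32 in 3 of 4 lists and their ranges overlap, so this order did not hold in every list. The mean difference within lists was 9.09 ± 7.16 (SD, n = 4). BEAF-32 was above M1BP in 4 of 4 lists, although their ranges overlap, with a mean difference within lists of 19.5 ± 9.88 (SD, n = 4). Ranked by the deposited q-value instead, Chro, mod(mdg4) and Cp190 tied at a mean percentile of 87.1, and M1BP (62.6) stood above BEAF-32 (59.1). Replicate 2 gave the highest percentile at 5 of the 6 regions of these genes in all 4 lists, as it did at 63.8% of all 1171 such regions (747). That list is also the longest. The median percentile of the 1171 regions was 82.5 in replicate 2, against 67.3, 69.0 and 73.5 in replicates 1, 3 and 4. With every list reduced to its 1948 strongest peaks, replicate 2 was the highest at 3 of the 6 regions and at 23.8% of the 1038 regions left in all lists.

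**Figure D2:**
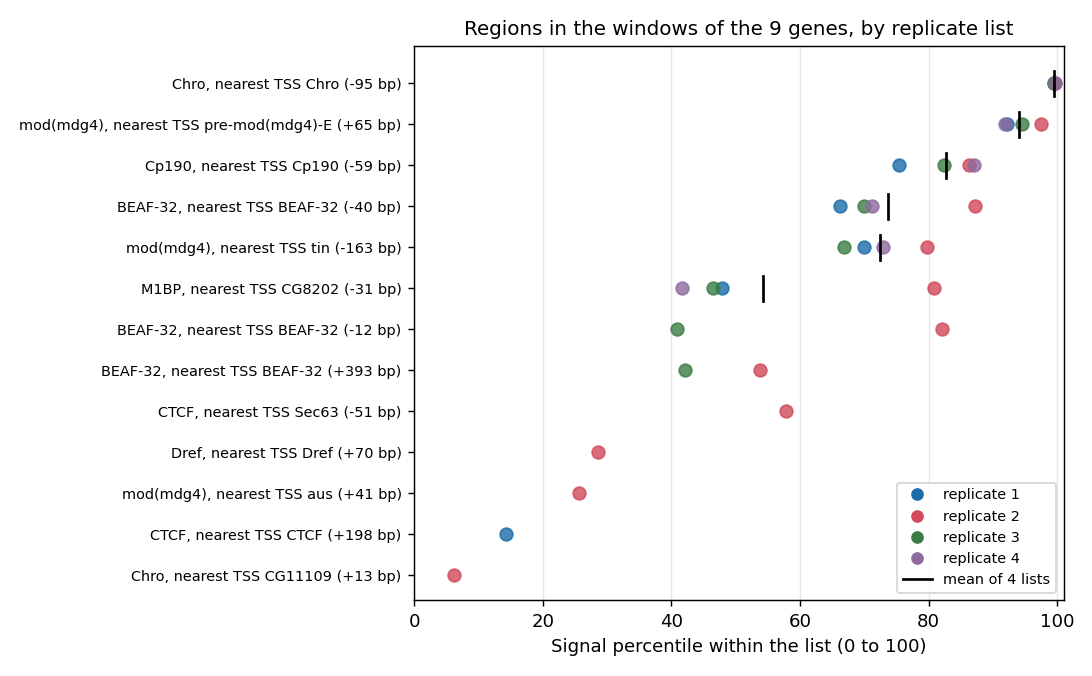
Signal percentile within each list (x axis, 0 to 100) of the 13 regions in the windows of the 9 genes, one row per region with its nearest TSS. Points are replicates 1 to 4 and black bars are the mean where all 4 lists hold the region. The Chro points sit between 99.4 and 99.7, while the M1BP points spread from 41.7 to 80.9.

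No region in at least 2 lists lay within 1 kb of the start sites of CTCF, Dref, pzg or su(Hw). CTCF, the fly form of the zinc-finger insulator protein (chr3L:7353578-7356713, minus strand), had an intronic peak 198 bp downstream of its TSS in replicate 1 only, at the 14.3 percentile. In its window, a peak 51 bp upstream of Sec63, a gene for the protein translocation machinery, was in replicate 2 only, at the 57.9 percentile. Dref (chr2L:9964147-9967229, minus strand) had a peak 70 bp downstream of its TSS in replicate 2 only, at the 28.5 percentile. RpL13, a ribosomal protein gene, starts 84 bp away in the other direction. Neither pzg (chr3L:21286099-21290310, plus strand) nor su(Hw) (chr3R:14304455-14308589, minus strand) had any thresholded peak in its window. A peak missing from a thresholded list does not show that Gug-eGFP was absent, since the depth of the libraries is unknown.

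The longer ranked lists, which keep peaks below the authors' threshold, were read at the same start sites. Of the 9 genes, 6 had a ranked peak within 1 kb of a TSS in all 4 lists, namely the 4 bound genes, pzg and su(Hw), against 32.2% of all genes. At pzg the best percentile was 68.6, 49.3, 87.6 and 87.2 in replicates 1 to 4, with summits from 845 bp upstream to 263 bp downstream of the TSS. The pzg summits thus did not mark one place. At su(Hw) it was 12.7, 89.3, 77.6 and 17.1, with summits 305, 283 and 308 bp upstream in replicates 1, 2 and 3 and 890 bp downstream in replicate 4. The summits of replicates 1, 2 and 3 fall at nearly the same place, though their percentiles are far apart. At CTCF it was 96.4, 85.0 and 76.9 in replicates 1, 2 and 4, with summits 198, 133 and 185 bp downstream of the TSS, and no peak was listed in replicate 3. Dref was listed in replicates 2 and 3 at 92.5 and 90.6, with summits 70 and 54 bp downstream. The annotated mod(mdg4) TSS was listed in replicates 2 and 4 at 85.0 and 18.5. At the 4 bound genes the ranked percentiles were 95.6 (M1BP, replicate 4) or higher. These genes were called from the thresholded lists, so their high ranked percentiles follow from that choice. Even a weak thresholded peak ranks high here. The CTCF peak of replicate 1 was at the 14.3 percentile of the thresholded list and at 96.4 of the ranked list. Over all genes with a peak in every ranked list, the mean best percentile had quartiles of 71.1, 89.2 and 96.4.

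**Figure D3:**
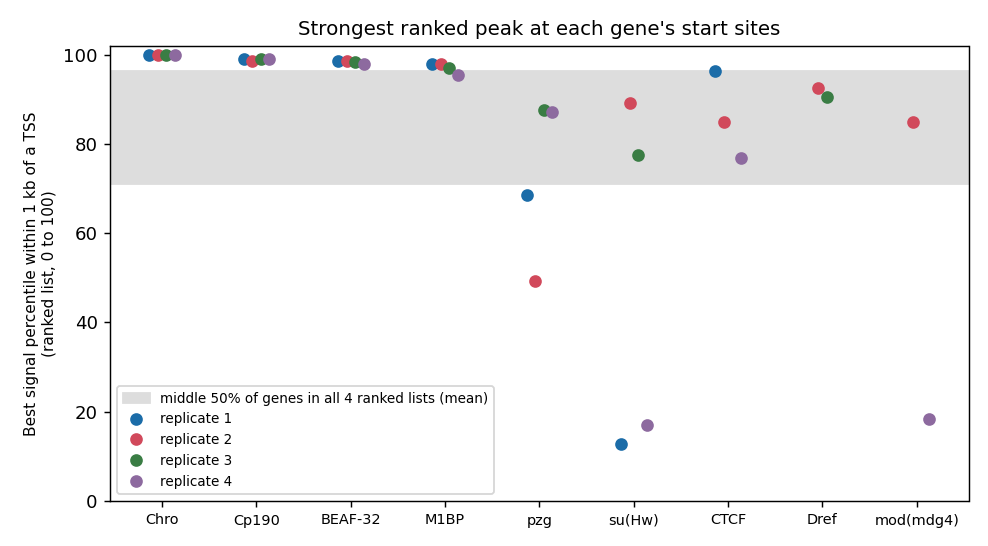
Best signal percentile (y axis, 0 to 100) of a ranked peak within 1 kb of a TSS of each of the 9 genes, with points for replicates 1 to 4 and no point where none was listed. The grey band runs from 71.1 to 96.4, the quartiles over all genes in all 4 ranked lists. The points of Chro, Cp190, BEAF-32 and M1BP lie high and close together, and those of su(Hw) and mod(mdg4) spread widely. The former genes were called from the thresholded lists, so their high ranked percentiles follow from that choice.

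Further features of the genes and of their regions were also compared. The genes were chosen with earlier results of these data known, so values taken from their regions are not independent of that choice. Of the 9 genes, 6 have a divergent partner starting within 1 kb, against 36.2% of all genes. The partners are Ssl1, CG12974, CG4338, Polr2I, RpL13 and CG8202, at gaps of 105, 137, 281, 500, 84 and 393 bp from Chro, pzg, Cp190, su(Hw), Dref and M1BP in that order. Of these 6 genes, 3 were bound, against 28.6% of all genes with such a partner and 8.65% of genes without one. Among the genes with no such partner, BEAF-32 was bound and CTCF and mod(mdg4) were not. BEAF-32 falls in this group narrowly, since the gap between its start and that of Spred is 1046 bp. Of the 8 regions in at least 2 lists, 7 lay within 200 bp of the nearest TSS of any gene, and all 8 lay within 1 kb. Over all 2643 such regions, 40.4% lay within 200 bp. Since the 8 were taken from gene windows, the nearer comparison is with the 2503 regions in the span and 5 kb flanks of any gene, of which 42.7% lay within 200 bp and 65.3% within 1 kb. The summed windows of the 9 genes hold 55.1 regions per Mb, against 19.2 over the main arms, but the windows are centred on genes and the arms are not. Summit spread between lists was 22 bp at Chro, 12 bp at BEAF-32, 34 bp at M1BP and 64 bp at the tin side of mod(mdg4), and 218 bp at Cp190 and 204 bp inside mod(mdg4), where the summits form pairs, against a median of 35 bp over regions in 4 lists, with quartiles of 20 and 65 bp. Most peaks have the one width most frequent in their list (284, 300, 290 and 304 bp for replicates 1 to 4, held by 68.5% to 79.0% of peaks), so region ends are not measured boundaries.

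Motif matches were counted within 100 bp of the median summit of the 8 regions in at least 2 lists. The 10 motifs, on both strands, were TATCGATA (the Dref element), CGATA (the BEAF-32 core, contained in TATCGATA), GGTCACAC (motif 1), GTATNTTT (motif 6), CANCNCTA (motif 7), CAGCTG (an E-box), TATAAA (the TATA box), GAGAGAG (the GAGA motif), TGCATAC (a Su(Hw) core) and AGGNGGCGC (a CTCF core). CGATA was in 4 of the 8 windows, at Chro, Cp190 and both inner BEAF-32 regions, against 31.7% of all regions and 37.1% of all TSS windows of the same width. TATCGATA was in 1 window, at Cp190, against 4.05% of all regions and 6.44% of TSS windows. GGTCACAC, the element M1BP reads, was in none of the 8 windows, against 1.97% of all regions and 5.68% of TSS windows. CANCNCTA was in 2 windows, at M1BP and at tin, against 14.0% of all regions. CAGCTG was in 1 window, at M1BP, against 10.7% of all regions. TATAAA was in 1 window, with 3 matches, at tin, against 31.9% of all regions. The TATAAA runs of the printed M1BP line do not lie wholly inside this window. Motif 6, the GAGA motif, the Su(Hw) core and the CTCF core were in none of the 8 windows, against 9.19%, 4.16%, 3.56% and 1.48% of all regions. A match is a description of the letters, not of a bound site. GC content of the 8 windows ran from 28.4% at the internal mod(mdg4) region to 54.7% at the second BEAF-32 region, against quartiles of 33.8% and 41.8% over all regions.

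Of 20 further genes for insulator and architectural proteins, 4 were bound (20%), against 15.9% of all genes. Trl, which codes for the GAGA factor, was in all 4 lists with a mean percentile of 79.1 ± 10.6 (SD, n = 4), downstream of its TSS. SA1, a cohesin subunit gene, had 68.1 ± 21.8 (SD, n = 4), 51 bp upstream. shep, for an RNA-binding insulator cofactor, had 67.6 ± 23.9 (SD, n = 4), 190 bp upstream. pita, for a zinc-finger architectural protein, was in 3 lists with 47.5 ± 11.5 (SD, n = 3), 142 bp downstream. The cohesin genes SMC1, SMC3, vtd and Nipped-B, and the insulator genes dwg, ZIPIC, Ibf1 and Ibf2, had no such region. Of 16 genes for the machinery of housekeeping promoters, 3 were bound (18.8%), against the same 15.9%. JIL-1, which codes for a histone H3 kinase, had 50.2 ± 32.3 (SD, n = 4), 27 bp upstream. Rcd5, an NSL complex gene, had 65.6 ± 17.8 (SD, n = 4), but the start of CG11593 lay nearer. gfzf, for a cofactor of M1BP, was in 2 lists with 33.4 ± 10.4 (SD, n = 2), 175 bp upstream. Both shares are near that of all genes with 2 lists required, though both were above it in the authors' series-level lists. In the conservative list 5 of 20 and 6 of 16 were bound, against 2749 of all 13968 genes. In the largest list 6 of 20 and 7 of 16 were bound, against 3195. With all 4 replicate lists required, the 2 shares were 15% (3 of 20) and 12.5% (2 of 16), against 7.84% of all genes.

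**Figure D4:**
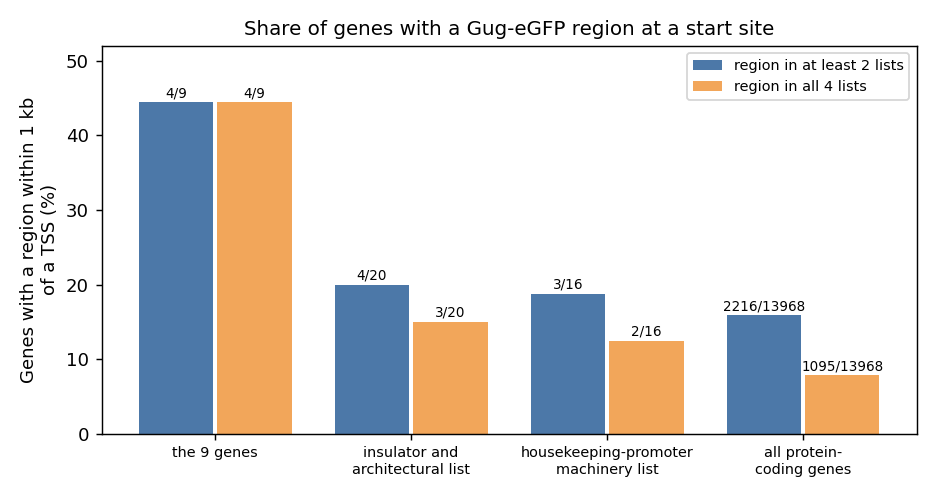
Share of genes (y axis, percent, from 0) with a Gug-eGFP region within 1 kb of a TSS, for the 9 genes, the 2 wider lists and all protein-coding genes, with counts above the bars. Blue bars need at least 2 lists and orange bars all 4. The 9 genes stand at 44.4% on both bars, against 15.9% and 7.84% of all genes. The 9 genes and the 2 wider lists were chosen with earlier results of these data known.

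For each bound gene, the 2 other regions in all 4 lists with the most similar set of percentiles were found by Euclidean distance over the 4 lists. For Chro these were the regions nearest to CG1888 (distance 0.211) and tara (0.226). For Cp190 they were at Wdr37 (3.23) and Gapdh2 (3.96). For BEAF-32 they were the regions nearest to bbx (7.44) and Rtel1 (7.51). For M1BP they were the regions nearest to CG34460 (8.83) and Hibch (11.7). The tara, bbx and CG34460 regions lay 3166, 1406 and 3739 bp from those starts, so beyond 1 kb. The likeness is that of 4 percentiles alone.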

How the data were processed

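The deposited files are narrowPeak lists on dm6, per the file headers and labels. Per the text deposited with each sample, the authors called peaks per replicate. The sources used here give neither aligner nor peak caller. Each list holds the authors' signal score per peak, a deposited IDR score (IDR is the irreproducible discovery rate, and the scale ends at 1000) and the deposited −log10 q-value. Scores were ranked only within a list. No read counts were used, so depth is unknown and no interval is given.

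Thresholded summits no more than 200 bp apart were joined across the 4 lists. A region's position is the median summit, and its percentile in a list is that of its strongest peak there. TSSs came from Ensembl release 115, with coordinates given 1-based. For the wider lists, 36 symbols were searched, 2 of them through an older name, and all were matched. The tools were Python 3.11.15, numpy 2.4.6, pandas 2.3.3 and matplotlib 3.10.9. The joining and gene steps were tested on simulated data.

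Every one of the 9 genes is named, with the gene nearest to each of their regions, the bound genes of the wider lists, and the 2 most similar regions per bound gene. The unbound genes named from the wider lists were chosen after their values were seen. The 9 genes and the lists were chosen with earlier results of these data known. With 1 group and no control there was no test. Alternatives changed the lists required, the joining distance, the lists used, the windows, the measure ranked and the replicates. The labels call the replicates biological.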

Additional observations from a re-analysis of the deposited data

Results flagged for a closer look

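The percentile of the M1BP region was 80.9 in replicate 2, against 47.9, 46.4 and 41.7 in replicates 1, 3 and 4. Its gap to the nearest other value was 0.842 of the range, above Dixon's 95% critical value for 4 samples. Of 6 regions examined, 1 passed, and chance flags about 1 in 20 groups. The list of replicate 2 is the longest. With all lists reduced to their 1948 strongest peaks, the percentiles were 62.8 in replicate 2 and 47.9, 41.8 and 26.7 in replicates 1, 3 and 4. The gap was then 0.418 of the range and no longer above the critical value, so the flag is lost in lists of equal length.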

How the results depend on the processing

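The number of the 9 genes that were bound ran from 3 to 6 over the alternatives, against 4 as reported. It was 6 with 1 list required and with the authors' largest series-level list (CTCF and Dref added), 5 with their conservative list (Dref added), and 5 with a 2 kb window or when the pre-mod(mdg4) starts, an alternative chosen after seeing the data, counted for mod(mdg4). It was 3 with the stronger 50% of each list and with the nearest TSS only, both without M1BP, and 4 without each replicate in turn. The regions in the windows, 8 as reported, were 13 with 1 list, 5 with the stronger 50%, and 13 and 15 in the authors' conservative and largest lists, where summits are not joined. Bound genes among all genes, 2216 as reported, were 3359 with 1 list, 1095 with 4 lists and 1311 with the stronger 50%. They were 2722 with a 2 kb window, and 2749 and 3195 in the conservative and largest lists. Of the 20 genes of the insulator and architectural list, 7 were bound with 1 list, 5 with the conservative list and 6 with the largest. Of the 16 genes of the housekeeping list, 6 were bound with 1 list, 6 with the conservative list and 7 with the largest. Each of these shares was above that of all 13968 genes under the same setting. Of 35 alternative mean percentiles, 8 moved by more than 1 SD, through the ranked lists (97.2 or higher) or the q-value, whose top values are tied (Chro, mod(mdg4) and also Cp190 87.1, BEAF-32 59.1). By q-value M1BP was at 62.6, above BEAF-32, so the order of these neighbours turned. Percentiles in lists of equal length were also chosen after seeing the data. Of 20 motif counts at other window widths, 6 moved. The cause of these shifts was not tested, beyond the number of peaks that each setting leaves. Column 8 of the lists holds one constant and gave no value. No paired analysis was possible because the labels give 1 group. Unknown depth limits what a missing peak can show.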
